A study of Homo sapiens with 2 samples.

Results

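The spliceosome removes introns from pre-mRNA. Small nuclear ribonucleoproteins (snRNPs), each an RNA with a ring of Sm proteins and its own specific proteins, recognise the splice sites; SF3A, SF3B and U2AF proteins act at the branch site and the 3′ splice site, and PRPF proteins help to build and drive the catalytic machine. SR proteins mostly promote the use of an exon and hnRNP proteins often oppose it, and several genes of both families limit their own level by splicing in exons that send the mRNA to nonsense-mediated decay. The genes described here were chosen by symbol: SRSF, HNRNP, SF3A, SF3B, SNRP, U2AF and PRPF genes, leaving out symbols that end in P and digits, which mark pseudogenes. They came to 71 of 28658 rows of the table, which hold 24991 distinct single-gene symbols.

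RNA was sequenced from PLC/PRF/5, a line of human liver cancer (hepatocellular carcinoma) cells, kept under hypoxia. The NFX1 library came from cells that overexpress NFX1, which encodes a zinc-finger DNA-binding protein, and the vector library from cells with an empty vector (EV), so both cultures were hypoxic. The labels do not say how NFX1 was delivered or whether the cells were a clone or a pool. There was 1 library per group, so no test across samples was possible, and the differences reported are between single libraries, not between conditions with a known spread.

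The deposited values are FPKM (fragments normalised to transcript length and to the mapped total), a level per length that can be compared between genes. NFX1 itself had 56.0 FPKM in the NFX1 library and 4.21 FPKM in the vector library. All 9 hepatocyte-lineage markers reached 1 FPKM in a library, though albumin (ALB) had 1.06 FPKM in the NFX1 library and 0.776 FPKM in the vector library. The 3 fibroblast and 3 endothelial markers were below 1 FPKM in both libraries. Of 5 blood-cell markers, PTPRC and CD3E were listed at 0 in both, and CD68 and LYZ were the 2 that reached 1 FPKM; the 5 summed to 101 FPKM in the NFX1 library and 98.3 FPKM in the vector library. From the steps in the values of barely detected loci, depth was estimated at 29.9 M fragments in the NFX1 library and 26.3 M in the vector library. In such bulk RNA, fewer cells with a transcript and less transcript per cell cannot be told apart.

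Of the 71 members, 69 had at least 1 FPKM in a library. The other 2 rows, HNRNPCL2 and a locus shared by HNRNPCL1 and HNRNPCL3, were listed at 0 in both libraries. Among the 69, HNRNPU-AS1 is an antisense RNA, and HNRNPH2 shares its row with the ribosomal protein gene RPL36A, so 67 members were protein-coding genes with a row of their own. For 11 of these, SRSF2, SRSF9, HNRNPA2B1, HNRNPAB and PRPF31 among them, the locus overlaps another gene's row of at least 1 FPKM, and reads could have been divided between the genes. The change of a gene is given as log2((NFX1 FPKM + 1)/(vector FPKM + 1)), which understates the difference of low genes, and a fold is NFX1 FPKM over vector FPKM. Fold limits, such as past 1.2-fold, were applied to the change and not to the fold, so a low gene can have a fold past the limit and not be counted. Each interval beside a fold is a 95% exact counting interval from estimated fragments. It covers counting error only, not the spread between cultures or copies made by PCR. The fragments rest on the length of a GENCODE transcript, which can differ from the length behind the deposited FPKM. For HNRNPA0 that length was 8726 bases, longer than the deposited locus (chromosome 5, 137087073 to 137090039). Its fragments were therefore overestimated and its interval is too narrow.

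The sequences below show the coding sequence at both ends of the range of changes, because the ends differed in base composition. They belong to the coding members with the greatest increase (SF3A2, SF3B5) and the greatest decrease (PRPF18, HNRNPLL), and to a pair that departs from the pattern. Of that pair, SNRPG had the greatest increase among the members poorest in GC (at or below 42.0% of the transcript) and HNRNPM the greatest decrease among the richest (at or above 50.9%). The decrease of HNRNPM was small, with 115 FPKM in the NFX1 library and 120 FPKM in the vector library. Its change was -0.07 and its fold 0.955 (interval 0.926 to 0.985). Each is 60 bases within 1 exon, read 5′ to 3′ from GENCODE release 29 (GRCh38), with G and C in capitals, taken where GC content was closest to that of the whole coding sequence.
SF3A2: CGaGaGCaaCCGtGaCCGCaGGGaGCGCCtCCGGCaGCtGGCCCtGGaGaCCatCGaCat
SF3B5: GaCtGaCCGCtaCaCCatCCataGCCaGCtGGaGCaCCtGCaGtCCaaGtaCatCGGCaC
PRPF18: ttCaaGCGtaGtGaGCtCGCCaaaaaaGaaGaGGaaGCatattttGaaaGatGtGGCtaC
HNRNPLL: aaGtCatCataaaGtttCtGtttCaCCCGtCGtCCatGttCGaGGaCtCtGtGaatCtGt
SNRPG: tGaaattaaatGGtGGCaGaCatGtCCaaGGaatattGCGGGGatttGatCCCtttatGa
HNRNPM: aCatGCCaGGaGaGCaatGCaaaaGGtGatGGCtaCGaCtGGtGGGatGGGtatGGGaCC

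On GRCh38 these windows lie at chr19:2243478-2243537 (plus strand, SF3A2), chr6:144095436-144095495 (minus strand, SF3B5), chr10:13597473-13597532 (plus strand, PRPF18), chr2:38591578-38591637 (minus strand, HNRNPLL), chr2:70288133-70288192 (minus strand, SNRPG) and chr19:8465338-8465397 (plus strand, HNRNPM). The whole coding sequence was 67.7% G and C in SF3A2 and 57.8% in SF3B5, against 42.2% in PRPF18 and 44.0% in HNRNPLL. The departing pair had 39.2% (SNRPG) and 55.6% (HNRNPM). All positions given further on are the deposited hg19 loci.

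Splicing genes, like nearly all genes tested, differed little between the libraries. None of the 69 was past 1.5-fold, where 0.42% of the 11182 genes tested were higher and 0.215% lower, or past 2-fold (0.107% and 0.0358% of all genes). Shares this small mean that the absence of members past these limits does not set the 69 apart. At the limit of 1.2-fold used from here on, 5 members were higher in the NFX1 library (SF3A2, SF3B5, SNRPA, PRPF19 and U2AF1L4) and 2 were lower (PRPF18 and HNRNPU-AS1). HNRNPLL had a fold of 0.822 but a change of -0.26, just inside the limit, and counted as the 3rd lower member with a pseudocount of 0.1. The 5 and 2 are 7.25% and 2.90% of the members, against 11.5% and 4.95% of all genes tested. With the libraries scaled to equal summed FPKM the counts turned to 0 higher and 9 lower. The share of all genes past the limit under that scaling was not computed, so no count with equal sums has one beside it. With the trend described further on subtracted, 1 was higher and 0 lower of the 67 members with a trend value. HNRNPU-AS1, 1 of the 2 lower as deposited, had no trend value. At 1.1-fold 19 members were higher and 10 lower, where 29.4% and 20.7% of all genes were. The median change was 0.02 for the members and 0.01 for all genes. With a filter of 5 FPKM the order turned, at 0.046 for the members and 0.050 for all genes. As deposited 39 members (56.5%) were higher, against 52% of all genes, and 30 lower, but with equal sums 19 were higher and 50 lower. That scaling put the median of all genes at -0.10 and the members 0.01 below it, at -0.11.

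Among the SR proteins, 5 of 12 were higher in the NFX1 library and 7 lower (1 and 11 with equal sums). Of all genes tested, 52% were higher as deposited. As deposited none of the SR genes was past 1.2-fold (all genes: 11.5% higher, 4.95% lower), and with equal sums 2 were past it lower. Their median change was -0.02, and their summed level was 750.1 FPKM in the NFX1 library and 737.8 FPKM in the vector library. The ratio of these sums, 1.02, compares with 1.099 for the sum over all genes tested. The greatest increase was in SRSF2, which also acts in transcription elongation (chromosome 17, 74730197 to 74775336). It had 115 FPKM in the NFX1 library and 103 FPKM in the vector library, a fold of 1.12 (interval 1.08 to 1.15). Its locus overlaps MFSD11, which had 8.73 FPKM in the NFX1 library and 8.05 FPKM in the vector library. SRSF5 had 37.8 FPKM (NFX1) and 34.7 FPKM (vector), and SRSF7, an adaptor of mRNA export, had 31.3 FPKM (NFX1) and 30.2 FPKM (vector).

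The lower end of the family held SRSF10, SRSF1 and SRSF12. SRSF10, a splicing repressor when dephosphorylated, had 10.3 FPKM in the NFX1 library and 11.6 FPKM in the vector library. SRSF1, a prototype of the family (chromosome 17, 56078280 to 56085545), had 30.4 FPKM in the NFX1 library and 33.5 FPKM in the vector library, a fold of 0.905 (interval 0.834 to 0.982). SRSF12 had 2.03 FPKM (NFX1) and 2.30 FPKM (vector). SRSF1 and SRSF2, both general splicing activators, lay on opposite sides of 1 as deposited, and their counting intervals do not overlap.

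SRSF9 was the most abundant SR gene, at 359 FPKM in the NFX1 library and 356 FPKM in the vector library, with an interval of 0.985 to 1.04. SRSF3, which also promotes mRNA export, had 69.3 FPKM in the NFX1 library and 70.7 FPKM in the vector library (interval 0.950 to 1.01). Of the 12, SRSF2 and SRSF5 had intervals above a fold of 1 (16.7%) and SRSF1 had an interval below it (8.33%). The shares were 32.3% above and 22.9% below for all genes with an interval. GENCODE annotates a target of nonsense-mediated decay among the transcripts of all 12 SR genes, against 42.1% of the 10627 tested genes with a transcript there. Those 10627 include noncoding genes and pseudogenes, and the share of protein-coding genes alone was not computed. The deposited values are per gene, so the share of such transcripts was not measured here.

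**Figure D1:**
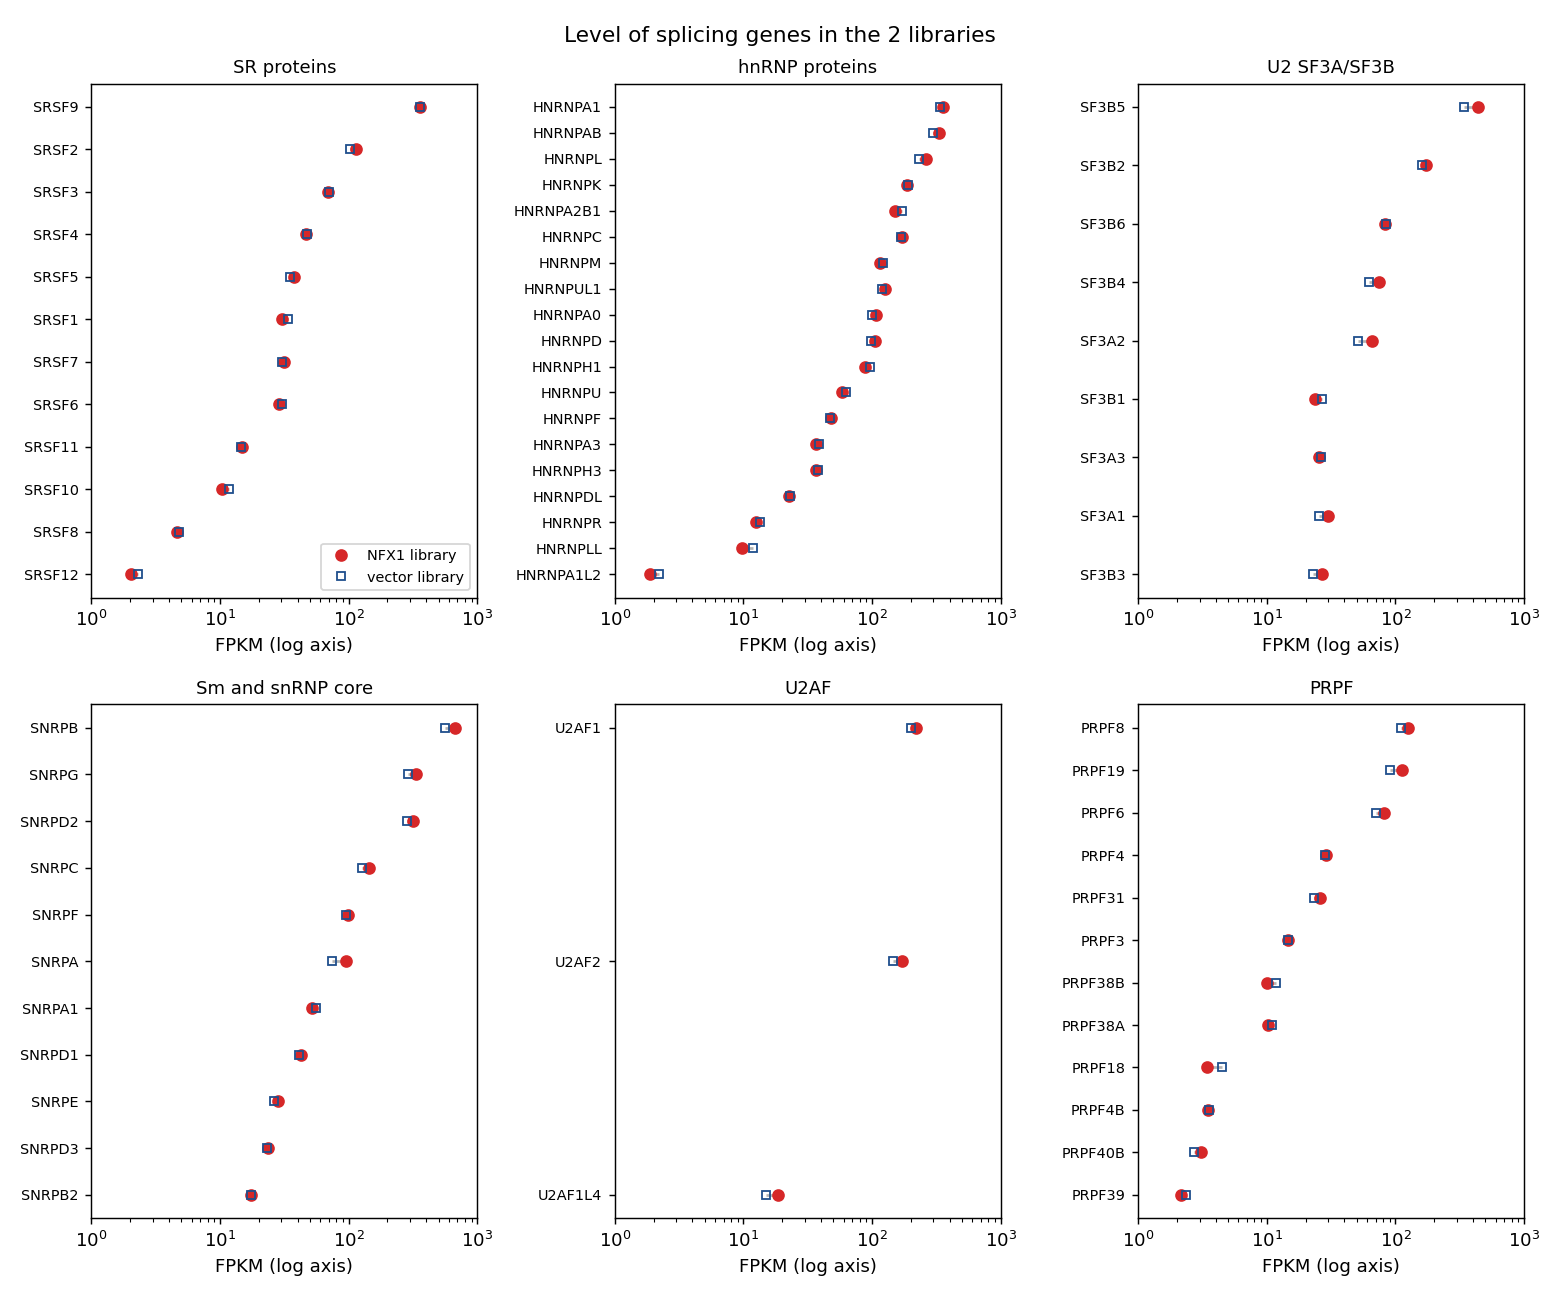
FPKM (log axis) of 66 of the 67 protein-coding splicing genes in the NFX1 library (filled circles) and the vector library (open squares), 1 panel per subfamily and 1 library per group. Levels in the NFX1 library run from 1.89 FPKM (HNRNPA1L2) to 670.1 FPKM (SNRPB), a range far wider than the distance between the symbols of any gene.

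Among the hnRNP proteins, 8 of 19 were higher in the NFX1 library and 11 lower (1 and 18 with equal sums). As deposited 52% of all genes tested were higher. The median change of the hnRNP genes was -0.04. By the change none was past 1.2-fold as deposited (all genes: 11.5% higher, 4.95% lower), and 3 were past 1.2-fold lower with equal sums. Their summed level was 2217 FPKM in the NFX1 library and 2166 FPKM in the vector library, a ratio of 1.02. The paralogs HNRNPL and HNRNPLL stood at opposite ends of the family. HNRNPL, which binds CA-rich RNA, had 262 FPKM in the NFX1 library and 232 FPKM in the vector library, a fold of 1.13 (interval 1.11 to 1.15). HNRNPLL, known for its role in CD45 splicing in lymphocytes (chromosome 2, 38790328 to 38830178), had 9.74 FPKM in the NFX1 library and 11.8 FPKM in the vector library, a fold of 0.822 (interval 0.760 to 0.890). Transcript GC content was 55.3% for HNRNPL and 38.7% for HNRNPLL. HNRNPAB had 329 FPKM (NFX1) and 299.6 FPKM (vector), and HNRNPD, which binds AU-rich elements of unstable mRNAs, had 105 FPKM (NFX1) and 97.3 FPKM (vector).

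HNRNPA1 was the most abundant hnRNP gene (chromosome 12, 54674488 to 54679030). It had 353 FPKM in the NFX1 library and 336 FPKM in the vector library, a fold of 1.05 (interval 1.03 to 1.07). Its relative HNRNPA2B1 (chromosome 7, 26229556 to 26253227) had 152 FPKM in the NFX1 library and 169.7 FPKM in the vector library, a fold of 0.893 (interval 0.874 to 0.913). The A-type genes thus lay on both sides of 1 as deposited. GENCODE lists 75 pseudogenes named after HNRNPA1, so how reads were divided among the copies is uncertain. The paralog HNRNPA1L2 had 1.89 FPKM (NFX1) and 2.2 FPKM (vector), from an estimated 77 and 79 fragments, and its interval of 0.618 to 1.19 covered a fold of 1.

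HNRNPC, which binds uridine tracts, had 169.8 FPKM in the NFX1 library and 167 FPKM in the vector library (interval 0.984 to 1.05). HNRNPK, which binds poly(C), had 185 FPKM in the NFX1 library and 191 FPKM in the vector library, a fold of 0.971 (interval 0.950 to 0.993). HNRNPH1, HNRNPH3 and HNRNPF bind runs of G. HNRNPH1 had 87.6 FPKM (NFX1) and 96.5 FPKM (vector) with an interval of 0.874 to 0.942. The intervals of HNRNPH3 (0.906 to 1.01), which overlaps that of HNRNPH1, and HNRNPF (0.969 to 1.06), which does not, covered a fold of 1. The shared row of HNRNPH2 and RPL36A had 429 FPKM (NFX1) and 405 FPKM (vector) and cannot be divided between those genes.

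HNRNPU, a nuclear scaffold protein, had 58.7 FPKM in the NFX1 library and 63.2 FPKM in the vector library, a fold of 0.930 (interval 0.906 to 0.954). The antisense RNA HNRNPU-AS1 had 4.74 FPKM in the NFX1 library and 5.90 FPKM in the vector library, a change of -0.27. Whether the library kept strand is not given in the sources used here, so reads of opposite strands could not be told apart, though the listed loci of this pair do not overlap (chromosome 1, 244998639 to 245010243 for HNRNPU-AS1 and 245013602 to 245027827 for HNRNPU). The HNRNPU-AS1 locus does overlap that of COX20, so reads could have been divided between those genes. No counting interval was available for HNRNPU-AS1.

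The subunits of SF3A and SF3B, which join U2 snRNP and hold the branch site, had a median change of 0.21 over 9 genes. Of these 6 were higher, where 52% of all genes were, and 3 lower (5 and 4 with equal sums, median 0.08). As deposited 2 of the 9 were past 1.2-fold higher (22.2%, against 11.5% of all genes) and 0 lower, but with equal sums 0 were higher and 1 lower. Summed levels were 938 FPKM in the NFX1 library and 805 FPKM in the vector library, a ratio of 1.17. SF3A2, a subunit of SF3A (chromosome 19, 2236816 to 2248678), had 65.8 FPKM in the NFX1 library and 51.0 FPKM in the vector library, a fold of 1.29 (interval 1.23 to 1.36). SF3B5, the smallest SF3B gene by transcript and the most abundant (chromosome 6, 144416018 to 144416754), had 437 FPKM in the NFX1 library and 343 FPKM in the vector library, a fold of 1.27 (interval 1.23 to 1.31). SF3B4 had 74.9 FPKM in the NFX1 library and 62.6 FPKM in the vector library, just under the limit. These members are rich in GC, like the printed stretches of SF3A2 and SF3B5.

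SF3B1, the scaffold of SF3B that is mutated in several cancers (chromosome 2, 198256698 to 198299817), stood on the other side. It had 23.5 FPKM in the NFX1 library and 26.8 FPKM in the vector library, a fold of 0.878 (interval 0.842 to 0.914). SF3B3, which binds it in the complex, had 26.7 FPKM in the NFX1 library and 22.9 FPKM in the vector library, a fold of 1.17 (interval 1.13 to 1.21). SF3B3 was therefore above SF3B1 in the NFX1 library and below it in the vector library. SF3A1 had 29.7 FPKM (NFX1) and 25.5 FPKM (vector), and SF3B2 had 173 FPKM (NFX1) and 162 FPKM (vector). SF3B6, which sits at the branch site, had 82.9 FPKM (NFX1) and 84.7 FPKM (vector), and SF3A3 had 25.5 FPKM (NFX1) and 26.3 FPKM (vector), both with intervals that covered a fold of 1.

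Of the Sm and snRNP-specific proteins, 9 of 11 were higher in the NFX1 library and 2 lower (5 and 6 with equal sums). The share of all genes tested that were higher was 52% as deposited. As deposited 1 (9.09%) was past 1.2-fold higher, against 11.5% of all genes, and with equal sums 0 were. Their median change was 0.08 as deposited and -0.05 with equal sums. All 7 genes of the Sm ring were higher as deposited, from 0.02 for SNRPD3 to 0.26 for SNRPB, but SNRPD1, SNRPD3, SNRPE and SNRPF turned lower with equal sums. These 4 had intervals that covered a fold of 1. SNRPB, the most abundant of the 67 genes (chromosome 20, 2442281 to 2451499), had 670.1 FPKM in the NFX1 library and 561 FPKM in the vector library, a fold of 1.19 (interval 1.17 to 1.22). SNRPG had 333 FPKM in the NFX1 library and 287 FPKM in the vector library, a fold of 1.16 (interval 1.11 to 1.21), although its sequence above is poor in GC. SNRPD2 had 318 FPKM (NFX1) and 281 FPKM (vector).

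The genes of one ring were listed at very different levels per length. SNRPD3 had 23.4 FPKM (NFX1) and 23.1 FPKM (vector), and SNRPE had 28.0 FPKM (NFX1) and 26.3 FPKM (vector). The SNRPD3 locus overlaps that of GUCD1, so reads could have been divided between those genes. SNRPD1 had 42.3 FPKM (NFX1) and 40.8 FPKM (vector), and SNRPF had 99.2 FPKM (NFX1) and 94.8 FPKM (vector). GENCODE lists 20 pseudogenes named after SNRPG, 18 after SNRPC and 9 after SNRPE, so the levels of these genes carry the same uncertainty as that of HNRNPA1.

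Proteins specific to U1 and U2 snRNP split by gene. SNRPA, an RNA-binding U1 protein (chromosome 19, 41256759 to 41271297), had 94.4 FPKM in the NFX1 library and 74.6 FPKM in the vector library, a fold of 1.27 (interval 1.21 to 1.33). SNRPC, which helps U1 to hold the 5′ splice site, had 145 FPKM in the NFX1 library and 127 FPKM in the vector library. SNRPA1, of U2 snRNP, had 51.5 FPKM (NFX1) and 55.4 FPKM (vector), a fold of 0.931 (interval 0.867 to 0.998). SNRPB2, a homolog of SNRPA in U2 snRNP, had 17.3 FPKM (NFX1) and 17.4 FPKM (vector). SNRPN, an Sm protein gene of an imprinted region, shares its row with SNURF and is not a member by symbol. That row had 178 FPKM in the NFX1 library and 183 FPKM in the vector library.

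The 3 U2AF genes were all higher in the NFX1 library as deposited (U2AF1 turned lower with equal sums, and U2AF1 and U2AF2 with the trend subtracted). Of all genes tested, 52% were higher as deposited. The median change of the U2AF genes was 0.21 as deposited, 0.07 with equal sums and -0.00037 with the trend subtracted. U2AF2, which binds the polypyrimidine tract, had 169 FPKM in the NFX1 library and 146 FPKM in the vector library, a fold of 1.16 (interval 1.12 to 1.196). U2AF1, which reads the AG of the 3′ splice site, had 219 FPKM in the NFX1 library and 200.4 FPKM in the vector library, a fold of 1.09 (interval 1.05 to 1.13). The paralog U2AF1L4 (chromosome 19, 36233428 to 36236343) had 18.5 FPKM in the NFX1 library and 15.0 FPKM in the vector library, a fold of 1.23 (interval 1.07 to 1.42).

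Among PRPF genes, 7 of 13 were higher in the NFX1 library and 6 lower (5 and 8 with equal sums). Of all genes tested, 52% were higher as deposited. As deposited 1 was past 1.2-fold in each direction (7.69%), against 11.5% of all genes higher and 4.95% lower. With equal sums 0 PRPF genes were past it higher and 2 lower. Their median change was 0.01 as deposited and -0.12 with equal sums, and they spanned -0.30 to 0.32. PRPF19, the ubiquitin ligase that names the Prp19 complex (chromosome 11, 60658020 to 60674061), had 113 FPKM in the NFX1 library and 90.1 FPKM in the vector library, a fold of 1.25 (interval 1.21 to 1.30). PRPF6, which bridges the tri-snRNP, had 81.9 FPKM in the NFX1 library and 70.4 FPKM in the vector library. PRPF8, the core of the catalytic centre and the most abundant PRPF gene, had 125 FPKM in the NFX1 library and 110.1 FPKM in the vector library, a fold of 1.14 (interval 1.12 to 1.16).

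PRPF18, which acts at exon joining, was the lowest of all members by change, -0.30 (chromosome 10, 13628939 to 13672868). It had 3.42 FPKM in the NFX1 library and 4.45 FPKM in the vector library. Its fold of 0.769 rested on an estimated 176 fragments (NFX1) and 201 fragments (vector), with an interval of 0.625 to 0.948. PRPF38B had 10.0 FPKM (NFX1) and 11.7 FPKM (vector), a fold of 0.856 (interval 0.788 to 0.931), and PRPF38A had 10.3 FPKM (NFX1) and 10.98 FPKM (vector). These genes are poor in GC, like the printed stretch of PRPF18.

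The U4/U6 proteins PRPF3 and PRPF4 had intervals that covered a fold of 1 and overlapped that of PRPF31. PRPF31, of the same particle, had 26.1 FPKM in the NFX1 library and 23.3 FPKM in the vector library (interval 1.04 to 1.21). PRPF39 and PRPF40B, relatives of yeast U1 snRNP proteins, and the kinase PRPF4B were low, at 2.15 to 3.51 FPKM in the NFX1 library and 2.34 to 3.57 FPKM in the vector library. All 3 had intervals that covered a fold of 1.

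**Figure D2:**
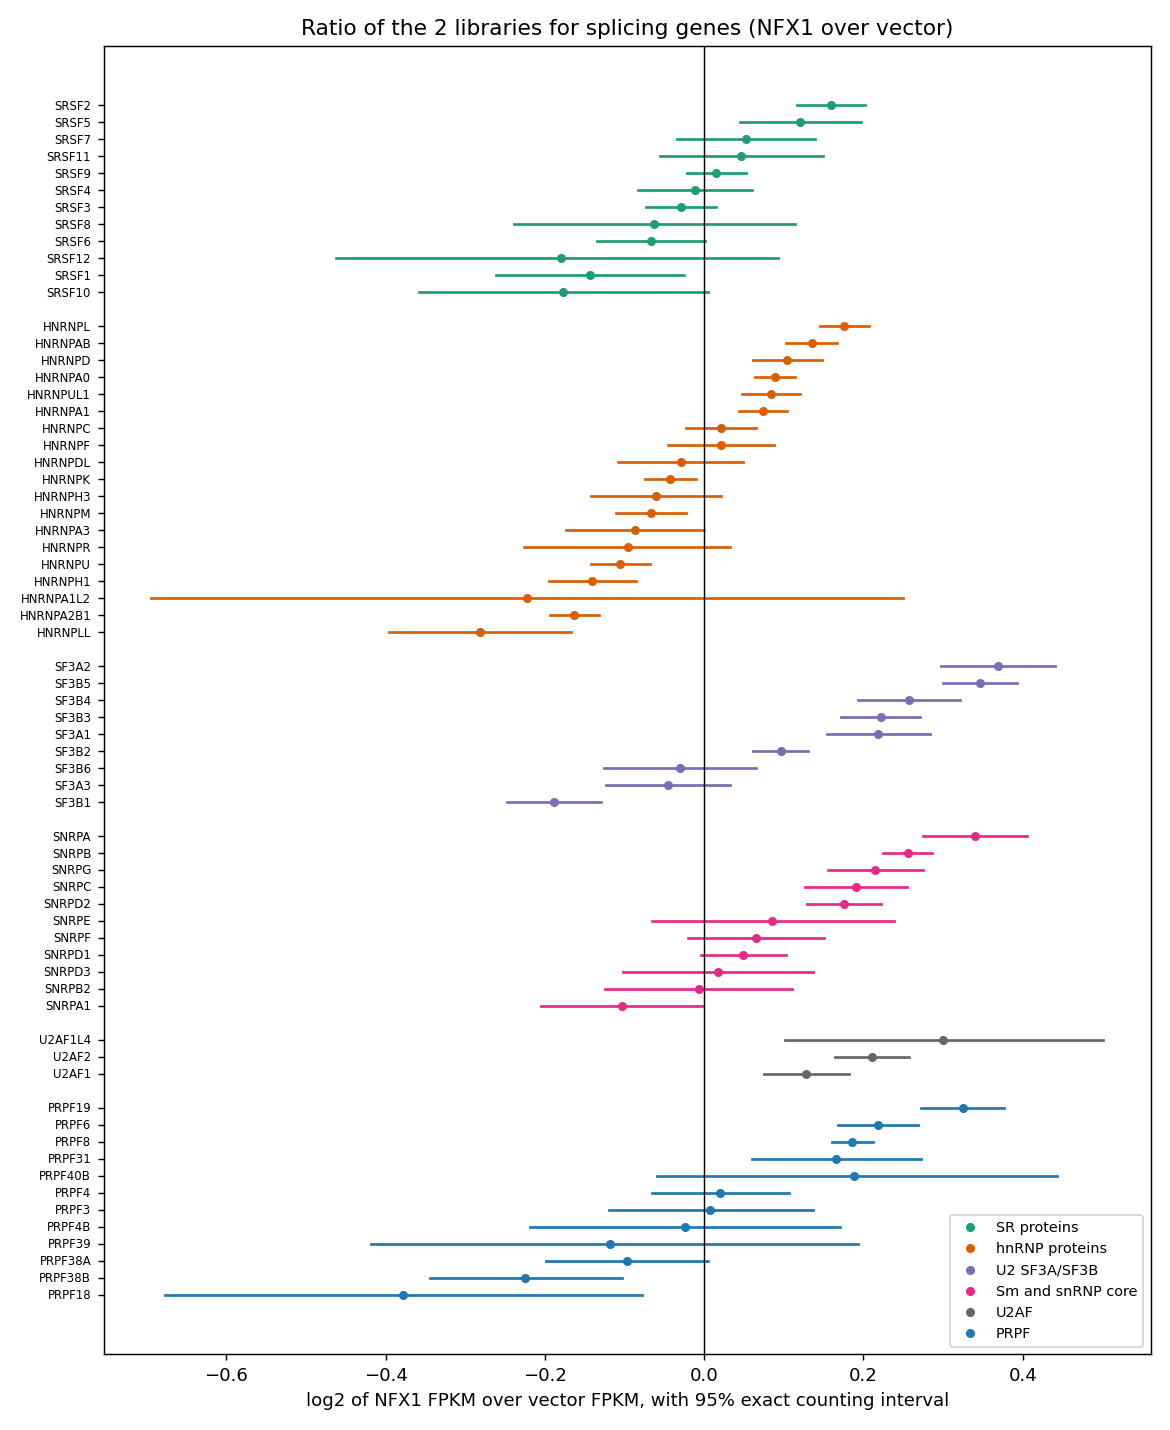
Log2 ratio of NFX1 FPKM over vector FPKM for 66 of the 67 protein-coding splicing genes by subfamily, as deposited, with bars for 95% exact counting intervals and a line at 0. SF3B1 and PRPF18 lie below 0 and SF3A2, SF3B5 and SNRPA farthest above it; the U2AF genes lie above 0, of which U2AF1 turns lower with equal sums, and U2AF1 and U2AF2 with the trend subtracted. The bars hold no spread between cultures.

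Over the 67 genes the counting interval lay above 1 for 26 and below 1 for 12. These are 38.8% and 17.9%, against 32.3% and 22.9% of 10627 genes. The members had a median of 46.9 FPKM in each library, against 10.2 FPKM for all genes tested. Intervals narrow as fragments rise, so these shares are not like for like. Of the members, 69 were tested in the authors' deposited table and 0 were marked significant, against 18 of 14994 rows in all. The smallest member p-value in the authors' deposited table was 0.153, for SF3A2, with a q-value of 0.999, and 0 members had a p-value under 0.05.

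The change of the splicing genes went with their base composition. Between change and transcript GC content, Pearson's r was 0.70 and Spearman's rho 0.65 over the 67 genes, which all come from the same libraries, and 0.57 and 0.62 over 10627 genes. Members had a median GC content of 45.5%, against 50.1% for all genes. All genes were divided into 5 classes of equal size by GC content. In the class poorest in GC, 7 of 22 members were higher, with a median of -0.05 against -0.11 for all genes of that class. In the next class 4 of 14 members were higher (median -0.05 against -0.10), and in the middle class 11 of 14 were (median 0.02 against -0.0024). In the next to richest class 14 of 15 members were higher (median 0.18 against 0.14), and in the richest 2 of 2 were (median 0.29 against 0.20). From the poorest class to the richest, 19.1%, 21.8%, 49.4%, 79.9% and 89.5% of all genes were higher. The change also went with level, with a Spearman's rho of 0.49 between mean FPKM and change over the 67 genes.

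The trend of the change with GC content, transcript length and level took 40.6% of its variance over all genes and was subtracted as an alternative. The median of the members was then 0.02, with 40 of 67 higher (59.7%, against 50.4% of all genes) and 27 lower. Only SF3B3 was past 1.2-fold higher and 0 members were past 1.2-fold lower, against 3.28% and 3.46% of all genes. SF3 genes had the highest median of the 6 subfamilies, 0.11, with SF3B3 at 0.27, SF3A1 at 0.20, SF3B5 at 0.14 and SF3A2 at 0.12. SF3B2 was at -0.06 and SF3B1 at -0.08.

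Sm and snRNP genes had a median of 0.09 after the trend, with SNRPG at 0.22, SNRPA at 0.14 and SNRPB at 0.02. The U2AF median was -0.00037, with U2AF2 at -0.03. SR genes had a median of 0.02, with SRSF2 at 0.19 and SRSF1 at -0.17, so these activators remained on opposite sides. The hnRNP median was -0.0047, with HNRNPM at -0.18, HNRNPLL at -0.16, HNRNPA2B1 at -0.13 and HNRNPL at 0.01. PRPF genes had a median of 0.04, and PRPF18 was again the lowest member, at -0.22.

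**Figure D3:**
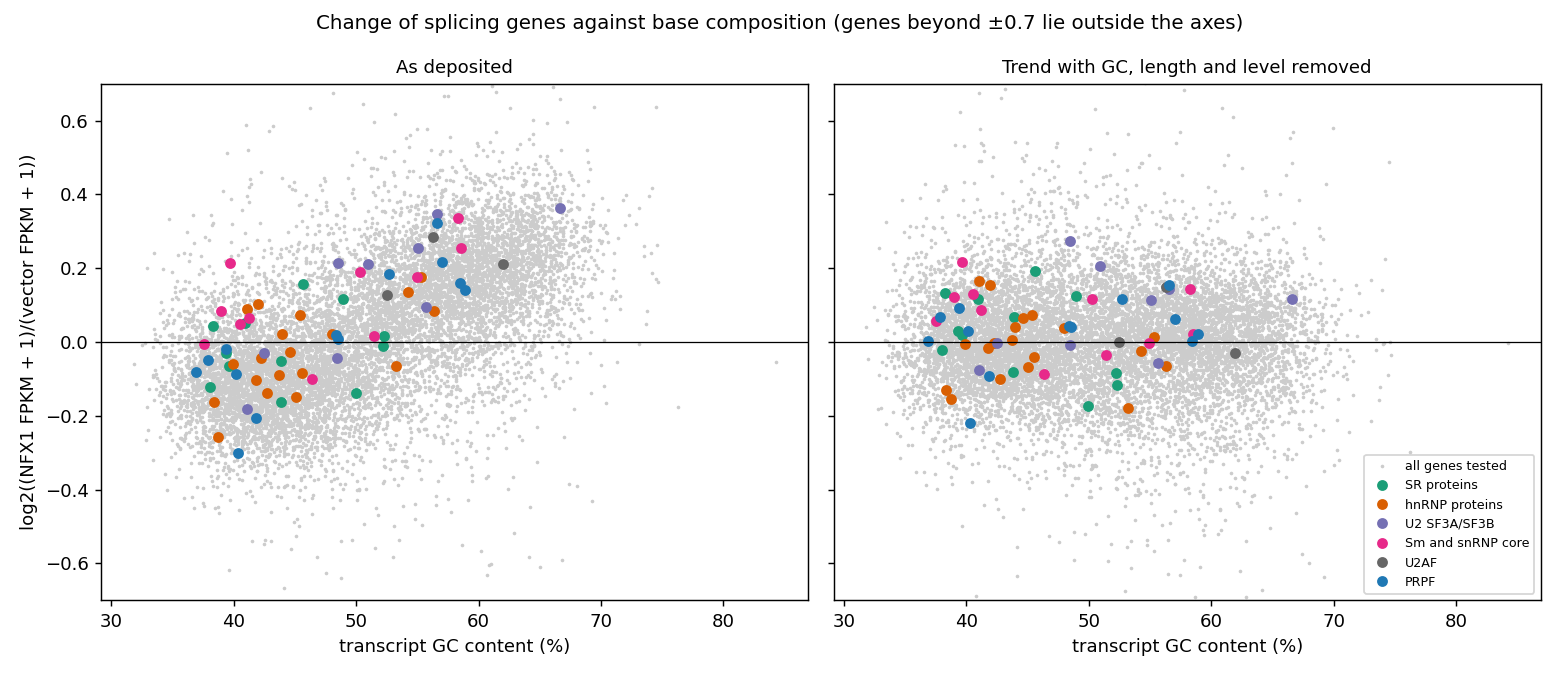
Change of each gene, log2((NFX1 FPKM + 1)/(vector FPKM + 1)), against transcript GC content (%), as deposited on the left and with the trend subtracted on the right. Grey points are all genes tested with a transcript and coloured points the 67 splicing genes, which follow the slope on the left (Spearman's rho 0.65). On the right rho is 0.03 for the splicing genes and for all genes, since the fitted trend with GC content was subtracted there.

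Splicing genes outside the symbol rule were taken from 8 lists of 160 genes, of which 149 had at least 1 FPKM in a library. Another 5 were under that limit, and 6 had no row of their own and were not analysed here. Of the 149, 76 were higher and 73 lower (43 and 106 with equal sums), with a median of 0.03. As deposited 52% of all genes tested were higher, a share that also stands beside the counts of each list below. As deposited 12 (8.05%) were past 1.2-fold higher and 3 (2.01%) past 1.2-fold lower by the change, against 11.5% and 4.95% of all genes. With equal sums 1 was higher and 18 lower, where the share of all genes was not computed. A pseudocount of 0.1 gave 13 and 5. Every list held genes on both sides.

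Among 20 SR-related proteins and SR protein kinases, 10 were higher and 10 lower (4 and 16 with equal sums). RNPS1, of the exon junction complex, was at a change of 0.29, the kinase CLK3 at 0.26 and SCAF1 at 0.21. The kinase CLK4 was at -0.32, with 1.34 FPKM in the NFX1 library and 1.92 FPKM in the vector library. SRPK1, which phosphorylates SR proteins in the cytoplasm, was at -0.27, with 14.8 FPKM in the NFX1 library and 17.99 FPKM in the vector library, and SCAF8 was at -0.19.

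Of 17 U1, U5 and tri-snRNP proteins, 12 were higher and 5 lower (8 and 9 with equal sums). The highest changes were 0.29 for SNRNP40, a U5 protein, 0.29 for NHP2L1, which binds U4 snRNA, and 0.23 for SNRNP70, the U1 70K protein. The lowest were SART3 (-0.15), a recycling factor, TIA1 (-0.10) and TIAL1 (-0.07). Of 16 U2-associated proteins, 8 were higher and 8 lower (6 and 10 with equal sums). DDX39A, an RNA helicase, had the highest change of all 149 genes, 0.41, with 146 FPKM in the NFX1 library and 109.7 FPKM in the vector library. PUF60 (0.29) and the branch-point protein SF1 (0.28) followed, and SMNDC1 (-0.20), HTATSF1 (-0.14) and DHX15 (-0.13) were lowest.

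The Prp19 complex and catalytic-step factors had 10 of 26 higher and 16 lower (4 and 22 with equal sums). XAB2 (0.22), DDX41 (0.16) and DHX16 (0.15) were highest, and AQR (-0.30), an intron-binding helicase, CRNKL1 (-0.22) and SLU7 (-0.14) lowest. LSm and assembly proteins had 13 of 24 higher and 11 lower (9 and 15 with equal sums), from GEMIN7 (0.37), LSM2 (0.30) and LSM4 (0.26) to PHAX (-0.11), STRAP (-0.13) and TGS1 (-0.21), which forms the cap of snRNAs. Minor spliceosome proteins had 4 of 7 higher and 3 lower (3 and 4 with equal sums), from SNRNP25 (0.24), ZMAT5 (0.20) and SNRNP35 (0.14) to SNRNP48 (-0.01), ZCRB1 (-0.07) and ZRSR2 (-0.10).

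Exon junction complex and decay proteins had 6 of 9 higher and 3 lower (1 and 8 with equal sums), all between -0.14 (RBM8A) and 0.12 (UPF1). MAGOHB (0.12) and EIF4A3 (0.11) were the next highest, and UPF2 (-0.03) and MAGOH (-0.0050) the next lowest. Of 30 other regulators, 13 were higher and 17 lower (8 and 22 with equal sums). RBM3, a cold-inducible protein, was at 0.37, with 49.4 FPKM in the NFX1 library and 38.0 FPKM in the vector library. RALY (0.28) and PTBP1 (0.27), which represses exons, followed, and RBM39 (-0.21), TARDBP (-0.19) and RBFOX2 (-0.19) were lowest.

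**Figure D4:**
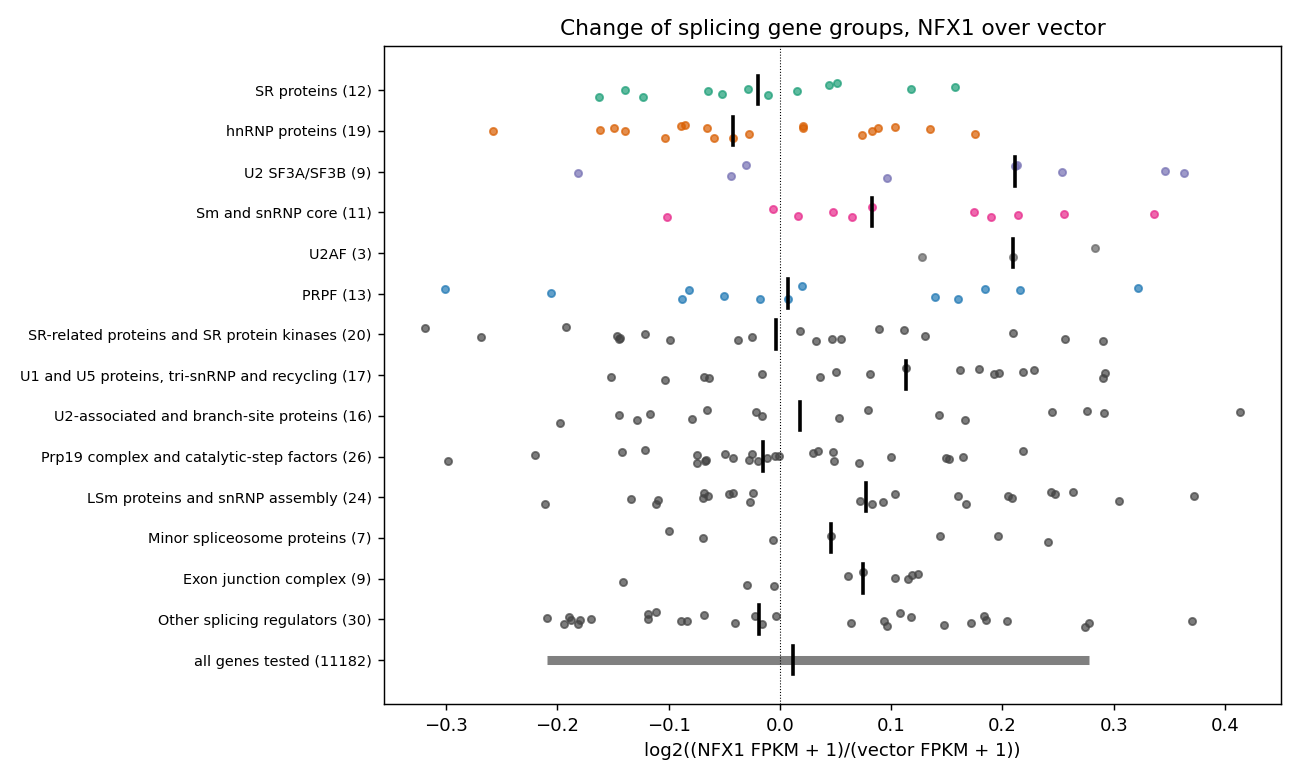
Change of the genes of the 6 subfamilies and the 8 lists of other splicing genes, log2((NFX1 FPKM + 1)/(vector FPKM + 1)), as deposited. Points are genes, black bars medians, and the grey bar spans the 10th to 90th percentile of all 11182 genes. SF3 and U2AF have medians of 0.21 (0.08 and 0.07 with equal sums, 0.11 and -0.00037 with the trend subtracted), and the other medians lie nearer to 0 as deposited.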

How the data were processed

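The deposited table holds FPKM per locus for 1 NFX1 library and 1 vector library, in the column layout of a Cuffdiff gene table per the file headers. TopHat2 2.1.0, Cufflinks 2.2.1 and hg19 are named in the submitters' processing notes; the sources used here do not give the settings, annotation, strand or scaling between libraries. The authors' deposited log2 fold change, test statistic (a score), p-value and q-value were copied, not recomputed; with 1 library per group they hold no replicate error.

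Changes were computed with Python 3.11.15, pandas 2.3.3, numpy 2.4.6 and scipy 1.17.1 as log2 of FPKM plus a pseudocount of 1, for single-gene symbols with at least 1 FPKM in a library. The highest row was kept for a repeated symbol. Fragments were estimated from FPKM, transcript length and the worth of 1 fragment, read from 7 (NFX1) and 6 (vector) olfactory receptor loci under 1100 bases listed at their lowest step. GC content and length came from the GENCODE release 29 transcript with the longest coding sequence, found for 95.0% of genes tested. Where that transcript differs from those behind the deposited FPKM, the GC content, fragments, interval and trend value of the gene can be wrong. Removal of the trend was tried on simulated data with counting error, a linear trend with GC content and planted changes larger than those of any member. No trend with length or level was planted, so removal of those was not tested, nor were changes as small as those of the members.

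The members and lists were chosen with earlier results of these data known. The values of 1 member are not reported here, though it enters the counts and medians. Any other member could be named; always given were SRSF1, SRSF2, SRSF3, HNRNPA1, HNRNPA2B1, HNRNPC, HNRNPK, SF3B1, U2AF1, U2AF2, PRPF8, SNRPB and SNRPN, and the 3 greatest increases and decreases and the most abundant gene of each subfamily, and of each other list the 3 greatest increases and decreases. Alternatives were other pseudocounts, filters, scalings, fold limits and row choices.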

Additional observations from a re-analysis of the deposited data

How the results depend on the processing

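No paired analysis was possible because each group has 1 library and the labels carry no replicate number, and no replicate could be left out. Scaling to equal sums gave medians of -0.11 for all members, -0.15 for SR, -0.18 for hnRNP, -0.049 for Sm and snRNP, 0.074 for U2AF and -0.12 for PRPF genes, and -0.10 for the other splicing genes. It left 19 members higher and 50 lower, 0 past 1.2-fold higher and 9 past 1.2-fold lower, and 1 and 18 of the other splicing genes. Scaling to equal upper quartiles gave medians of -0.051 (all members), -0.12 (hnRNP) and -0.037 (other splicing genes), 3 members past 1.2-fold higher and 4 lower, and 3 and 8 of the other genes. Both scalings lower every value of the NFX1 library by 1 factor, and all genes had medians of -0.10 and -0.05 under them. The share of all genes past 1.2-fold was not computed under either scaling. With the trend subtracted the U2AF median was -0.00037. Then 1 of the 67 members with a trend value was past 1.2-fold higher and 0 lower, and 3 and 1 of 148 other genes were. A pseudocount of 5 left 0 members and 0 other genes past 1.2-fold lower, a pseudocount of 0.1 put 5 other genes there, and a filter of 5 FPKM left 1 member there, since fewer genes were tested. A limit of 1.1-fold counted 19 members higher and 10 lower, and limits of 1.5-fold and 2-fold counted 0 members, with 0 other genes past 1.5-fold either way.

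Among single members 10 of 67 changed sign with equal upper quartiles, 19 with equal sums and 18 with the trend subtracted, and none of those past 1.2-fold changed sign. Depth limits the low genes: PRPF18 and HNRNPA1L2 rest on 201 and 79 estimated fragments in the vector library.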

Other observations

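Chromosome 19 was singled out after its values were seen. It holds 9 of the 67 splicing genes, of which 8 were higher in the NFX1 library as deposited, with a median change of 0.18, against 0.01 for the 58 members elsewhere. Of all 830 genes tested on chromosome 19, 80.7% were higher, with a median of 0.16. These members had a median GC content of 56.3%, against 43.9% for those elsewhere, and with the trend of GC content, length and level subtracted their median was 0.0020.

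RBM3 and SNRNP40, also chosen after their values were seen, are 2 genes whose change was larger with the trend subtracted than as deposited, 0.42 against 0.37 for RBM3 and 0.32 against 0.29 for SNRNP40. RBFOX2, a regulator of alternative exons, was at -0.31 with the trend subtracted and -0.19 as deposited. The counting interval of its fold as deposited, 0.740 to 1.01, covered 1.

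Of the 67 splicing genes, 39 (58.2%) have a GENCODE transcript marked for nonsense-mediated decay, against 42.1% of 10627 genes tested. Those 10627 include noncoding genes and pseudogenes, unlike the members. The share was 12 of 12 in SR, 13 of 19 in hnRNP, 3 of 9 in SF3, 4 of 11 in Sm and snRNP, 3 of 3 in U2AF and 4 of 13 in PRPF genes. The median number of transcripts per gene was 8.5, 12, 8, 5, 12 and 7 in the same order, and 8 over the 10627 genes. Pseudogenes named after members came to 186, of which 124 belong to hnRNP genes and 54 to Sm and snRNP genes. They are named after 26 of the 67 members, where 1360 of the 10627 genes have any. Of the 124, HNRNPA1 has 75, HNRNPA3 16, HNRNPC 9 and HNRNPK 5, so how reads were divided is uncertain for these genes too.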
